A study of Mus musculus with 6 samples.

Results

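The genes described here are the factors that carry out cytosolic translation: the initiation factors (eIF), the elongation factors (eEF), the release factors of termination, and the kinases, inhibitors and methyltransferases whose symbols belong to the same families. They were chosen by symbol alone (Eif or Eef followed by a digit, Etf1, and Gspt), with 1 probe set kept per gene, the one with the highest mean signal, and with the Y-linked Eif2s3y left out. This gave 51 of the 8251 named genes, read by 72 probe sets. The data are 6 oligonucleotide array profiles of mouse hippocampus total RNA, numbered 1 to 6 after their titles, made in work on HuD-overexpressing mice (HuD, or Elavl4, is an RNA-binding protein of neurons). No label gives a genotype, strain, age, sex or batch for any sample, or says whether animals were pooled, so no sample was called transgenic or control and no test between groups was made. Every value below describes single samples, and a difference between them has no replicate check.

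Translation starts when eIF2, bound to GTP and the initiator tRNA, joins the small ribosomal subunit together with eIF1, eIF1A, eIF3 and eIF5, and the complex is brought to the capped end of an mRNA by eIF4E, eIF4G and the helicase eIF4A. After start codon recognition eIF5B joins the large subunit, eEF1A delivers aminoacyl-tRNAs, eEF2 moves the ribosome along, and eRF1 with eRF3 releases the finished protein. In neurons 2 control points are well known: phosphorylation of eIF2 alpha, which blocks its exchange factor eIF2B, and the binding of eIF4E by the 4E-BPs, which mTOR relieves. Both act on proteins, and the arrays read mRNA levels only.

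The deposited values are signal intensity on a linear scale. For levels and ranges, the signals of an array were scaled to the array median, floored at 0.2 of that median and put on a log2 scale. Genes with a median over samples above 0 on this scale, the array median, were taken as expressed. The range of a gene is the log2 value of its highest sample minus that of its lowest, and the fold is this range on a linear scale. Signals are given as deposited, whereas the sample called highest or lowest is that after scaling. Detection calls were not used here, so a value under the array median is not shown to be above background. Beyond calling genes expressed, binning and plotting them by level and summing markers, levels were not compared between genes.

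Of the 51 genes, 38 were expressed, beside 4838 of all 8251 named genes. How many of all expressed genes lay above the array median in every sample was not counted. Of the 38 factors, 37 lay above it in all 6 samples. The exception was Eif4e2, with 2 values under it. None of the 38 reached a range over 1, that is, a highest sample more than 2 times the lowest, a size of range found in 4.2% of the 4838 expressed genes. The median range of the 38 was 0.40 (1.32-fold), the same to 2 decimals as that of all expressed genes (0.40, also 1.32-fold). The folds ran from 1.10 for Eef1a1 to 1.90 for Eif2b2. For 4 genes the highest and lowest samples differed by less than 1.2-fold, and for 5 genes by more than 1.5-fold (Eif2b2, Eif3a, Eif4e2, Eif5b and Gspt1). Such folds were common among all expressed genes. Eef2, the widest of the 4, stood at their 15.6th percentile of range, and Gspt1, the narrowest of the 5, at the 82.3rd. Ranges narrowed with level among the factors as among all genes: with the expressed genes cut into 3 bins of equal size by level, the median range was 0.53, 0.40 and 0.32 for the 9, 10 and 19 factors from the lowest to the highest bin, beside 0.52, 0.40 and 0.32 for all genes of the same bins.

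**Figure D1:**
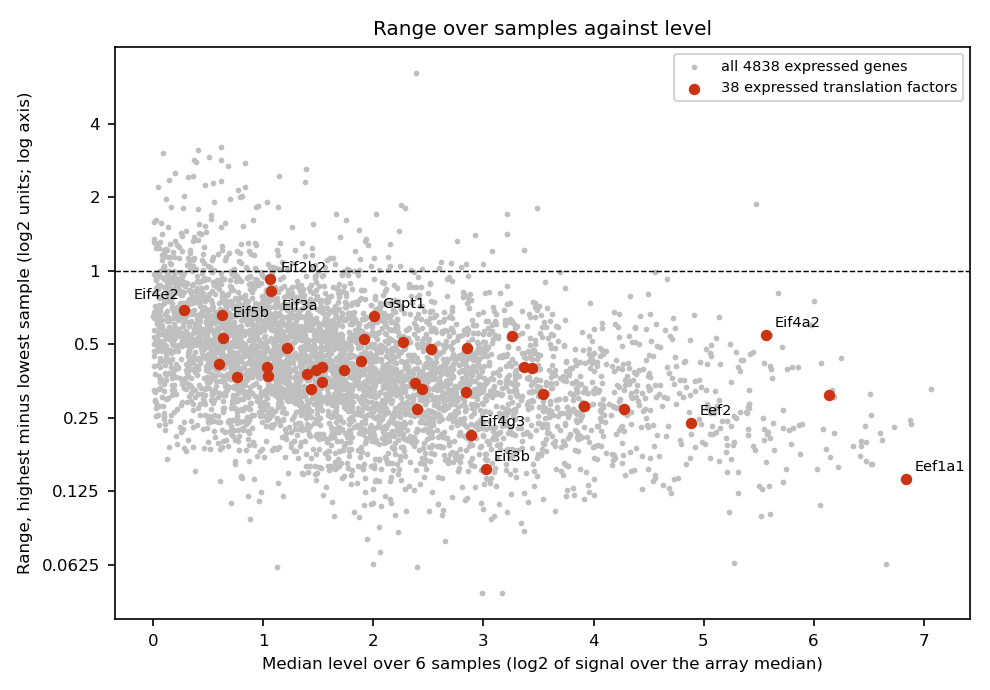
Range over the 6 samples (vertical axis, log2 units on a log axis) against the median level (horizontal axis, log2 of signal over the array median) for all 4838 expressed genes (grey points) and the 38 expressed translation factors (red points), with 1 point per gene. The dashed line marks a range of 1, and all 38 factors lie below it, with Eif2b2 (0.93) and Eif3a (0.82) nearest to it and Eef1a1 (0.14) the narrowest.

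Promoter sequences were looked at for what the genes share beyond their symbols. RefSeq promoters (GRCm38.p6, 250 bases before to 50 after each annotated start) were found for 41 of the 51 genes. The 8-base ETS factor motif CCGGAAGT, searched on both strands, was present in 8 of the 41 (19.5%), beside 9.82% of the 3930 expressed array genes with a promoter and 4.31% of all 27025 genes of the table. The 6-base E-box CACGTG, which reads the same on both strands and is the core bound by Myc and related factors, was present in 10 of the 41 (24.4%), beside 13.3% of expressed array genes and 8.09% of all genes. Among the 30 expressed factors with a promoter the E-box share was 16.7%, near the 13.3% of expressed array genes, and the ETS share was 20%, beside 9.82%. The median GC content of the windows was 62.3% for the factors, 61.5% for expressed array genes and 52.8% for all genes. The octamer TGACGTCA was present in 1 factor, Eef2 (2.44%, beside 3.69% of expressed array genes), and TATAAA in 3 (7.32%, beside 9.24%). A match describes letters in the window and not a bound site, and the 4 motifs do not overlap one another in the windows shown. The following 30-base windows hold the ETS motif (capitals) of the genes with the widest range of the eIF2B and eIF4 groups and of a second eIF2B subunit, and the E-box (capitals) of the widest eIF3 subunit and of the elongation factor Eef2. They are written along the gene's own strand.
Eif2b2, ETS, plus strand, chr12:85219486-85219515: cctctctcggcCCGGAAGTgaaacagtgct
Eif2b4, ETS, minus strand, chr5:31193120-31193149: cccagtgcacgCCGGAAGTtgtagtccgct
Eif4e2, ETS, plus strand, chr1:87213905-87213934: tcgccagccaaCCGGAAGTagccgggccct
Eif3a, E-box, minus strand, chr19:60790654-60790683: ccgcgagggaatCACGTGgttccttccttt
Eef2, E-box, plus strand, chr10:81176576-81176605: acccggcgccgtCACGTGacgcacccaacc
In Eif2b2, Eif2b4 and Eif4e2 the motif begins within 16 bases after the annotated start, in Eif3a 22 bases after it, and in Eef2 43 bases before it. After median scaling, 2 of the 6 expressed genes with the ETS motif and 4 of the 5 with the E-box were highest in sample 3, beside 55.3% of the expressed factors and 31.1% of all expressed genes, counts too small to read a difference from.

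The factors of start codon scanning and of the eIF2 ternary complex differed little between samples. Of 7 measured genes 6 were expressed, with a median range of 0.34. Eif2a, which encodes a factor apart from eIF2 that can also deliver initiator tRNA, was the widest, with signals of 103, 96.0, 113, 97.3, 82.3 and 93.7 in samples 1 to 6 (1.45-fold). Sample 3 was highest and sample 5 lowest. Eif2s3x, the X-linked gene of the gamma subunit that binds GTP and tRNA, had signals of 784, 681, 794, 676, 680.0 and 766 in samples 1 to 6 (1.24-fold). Its values in samples 1, 3 and 6 stood above those in the other samples. Eif1b, a paralogue of the scanning factor eIF1, had 1260.5, 1263, 1256, 1191, 1135 and 1092 in samples 1 to 6. After scaling it was highest in sample 3 and lowest in sample 6 (1.21-fold). Eif1ax, which encodes the scanning factor eIF1A, had 322, 324, 353, 332, 368 and 307 (1.21-fold), and its autosomal relative Eif1a had 135, 149, 134, 152, 122 and 169 (1.39-fold). The order of samples 5 and 6 was turned between these relatives. Eif2d, a factor able to bind tRNA to the ribosome without eIF2, had 130.1, 115, 141, 129, 131 and 114 (1.29-fold). The remaining gene, Eif2s2, of the beta subunit of eIF2, was under the array median throughout, with 20.1, 37.6, 21.5, 33.1, 26.1 and 23.1.

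eIF2B, the complex that recharges eIF2 with GTP, held the gene with the widest range of all 38. Eif2b2, its beta subunit, had signals of 112, 156, 119, 204, 138 and 106 in samples 1 to 6, a 1.90-fold range (0.93 on the log2 scale, at the 94.4th percentile of expressed genes). Sample 4 stood highest, and without it the range was 0.58. The other measured subunits did not follow its order, nor 1 order among themselves. Eif2b1, the alpha subunit, had 149.5, 159, 185, 170.4, 153 and 169 in samples 1 to 6 (1.30-fold), Eif2b4, the delta subunit, had 230.4, 209, 238, 191, 199.6 and 203 (1.31-fold), and Eif2b5, the catalytic epsilon subunit, had 180.5, 149.5, 183, 173, 166 and 168 (1.26-fold). These 3 genes were highest in sample 3, where the signal of Eif2b2 was below that in samples 2, 4 and 5, so the subunit genes did not follow 1 order in these 6 samples.

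Of the 4 eIF2 alpha kinases, which stop general initiation under stress, 1 was expressed. Eif2ak1, the heme-regulated kinase, had signals of 222, 233, 287, 211, 235 and 246 in samples 1 to 6 (1.44-fold). Sample 3 was high and the other 5 lay closer together: the range was 0.52 with sample 3 and 0.23 without it. Eif2ak2, the kinase PKR activated by double-stranded RNA, lay between 14.6 and 27.6. Eif2ak3, the endoplasmic reticulum kinase PERK, lay between 27.0 and 41.3, and Eif2ak4, the amino acid sensor GCN2, had 30.6, 27.1, 43.5, 40.8, 47.2 and 19.0. All values of these 3 genes were under the array median.

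The large scaffold eIF3, which holds the small subunit open for mRNA, was the best covered complex, with 10 measured subunit genes of which 9 were expressed (median range 0.40). Eif3a, its largest subunit, was the widest, with signals of 109, 133, 184, 120.0, 182 and 127 in samples 1 to 6 (1.77-fold, 91.5th percentile). Samples 3 and 5 stood together above the other 4. Eif3b, a core subunit, was among the steadiest genes, with 536, 489, 530.1, 519, 502 and 503 in samples 1 to 6 (1.11-fold, 3.2nd percentile). Eif3c, another core subunit, ranged 1.21-fold and Eif3d, which can itself bind the cap of some mRNAs, 1.26-fold. Eif3j1, of the loosely bound subunit, ranged 1.27-fold, Eif3k 1.32-fold and Eif3m 1.42-fold. Eif3e had 107, 119, 127, 135, 143 and 125 (1.32-fold), lowest in sample 1 and highest in sample 5. Eif3l ran otherwise than most, with 544, 669, 571, 691, 682 and 718 in samples 1 to 6 (1.32-fold), samples 1 and 3 being its lowest. Of the 9, 6 were highest in sample 3, beside 31.1% of all expressed genes. Lowest in sample 1 were 4, beside 21.6%. Eif3f, another subunit, was under the array median in all samples, with 46.4, 36.1, 27.5, 33.2, 14.7 and 13.4.

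Among the eIF4 factors, which bind the cap and unwind the leader of the mRNA, 6 of 8 measured genes were expressed, with a median range of 0.48. Eif4a2, a brain-rich paralogue of the eIF4A helicase, had signals of 2439, 3478, 2459, 2975, 3016 and 3125 in samples 1 to 6. Samples 1 and 3 were lowest and sample 2 highest, a 1.46-fold range. Its paralogue Eif4a1 had 167, 181, 169.8, 160.3, 211 and 194 (1.32-fold), highest in sample 5 and lowest in sample 4. Eif4b, the cofactor of the helicase, had 609, 456.5, 643, 545, 684 and 593 (1.46-fold), lowest in sample 2. Both were read by probe sets whose names mark shared or less specific probes. Eif4e2, a cap-binding protein that represses translation, had the widest range of this group, with 91.1, 55.1, 69.8, 80.1, 80.6 and 61.6 in samples 1 to 6 (1.62-fold, or 1.45-fold when dim values are set to the array median). Eif4g3, a scaffold that bridges the cap and the ribosome, lay between 431 in sample 6 and 488 in sample 2 (1.16-fold). Eif4g2, a scaffold that does not bind eIF4E, ranged 1.33-fold, with 117 in its highest sample, sample 4, and 85.2 in its lowest after scaling, sample 2. Of these 6 genes 0 were highest in sample 3, beside 31.1% of all expressed genes. Eif4e, the cap-binding protein itself, was under the array median throughout, with 28.5, 26.2, 21.7, 31.2, 30.8 and 9.23, as was Eif4h, a further cofactor of the helicase (4.20 to 9.27).

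Of the 3 measured genes whose products hold back or move eIF4E, Eif4ebp2, the main 4E-BP of brain, was expressed, with 408, 466, 452, 360.1, 435 and 499 in samples 1 to 6 (1.40-fold). Sample 4 was low and sample 6 high. Eif4ebp1 (22.3 to 35.5) and Eif4enif1, which carries eIF4E into the nucleus (2.86 to 21.9), stayed under the median of every array.

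For the late steps of initiation, 3 of 4 measured genes were expressed. Eif5, the factor that makes eIF2 hydrolyse its GTP, had signals of 462, 368, 418, 347, 334 and 342 in samples 1 to 6 (1.39-fold). The 3 lowest values lay within 334 to 347. Eif5b, the GTPase of subunit joining, had 107, 92.4, 86.5, 100.4, 68.0 and 106 in samples 1 to 6 (1.58-fold), with sample 5 apart below the others. It was the only 1 of the 38 genes with a sample standing apart by Dixon's ratio (the gap to the nearest sample over the range, past its 95% critical value), beside 5.89% of all expressed genes, and it was not past that value with any of the 3 other scalings. Without sample 5 its range was 0.23 on the log2 scale in place of 0.66. Eif6, which keeps the large subunit free until it is needed, had 198, 173, 195, 158, 175 and 156 in samples 1 to 6. After scaling it was highest in sample 3 and lowest in sample 6 (1.31-fold). Eif5a, the hypusine-bearing factor that helps stalled ribosomes, was under the array median, from 20.7 to 37.3.

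The elongation factors had the smallest median range of the groups with 3 or more expressed genes (0.27). Of the 4 expressed, Eef1a1, Eef1a2 and Eef2 were in the highest bin of level. The median range of all expressed genes in that bin was 0.32. Eef1a1, the general tRNA-delivering factor, had signals of 7268, 7055, 7197, 7209, 6881 and 7211 in samples 1 to 6. The 6 values were almost level, a 1.10-fold range at the 2.07th percentile of expressed genes. Eef1a2, the isoform of adult neurons and muscle, had 4709, 4767, 4619, 3972, 4194 and 4046 in samples 1 to 6 (1.24-fold). Samples 1, 2 and 3, at 4619 or more, were above the other 3, at 4194 or less. Eef2, the translocase, had 1790.5, 1830.1, 1969, 1924, 1862 and 1752 (1.18-fold), highest in sample 3 and lowest in sample 6. Eef1d, of the complex that recharges eEF1A, had 205, 229, 219, 245, 277 and 227 (1.35-fold), highest in sample 5 and lowest in sample 1. Its partners were dim: Eef1g had 4.97, 0.73, 2.95, 6.83, 1.83 and 3.35, at the floor of the scale in all samples. Eef1b2, read by a probe set of less specific name, had 94.1, 34.5, 66.9, 68.2, 12.6 and 57.4, a 7.48-fold range that rests on 3 values under the array median; with these set to that median its range was 0.58 on the log2 scale. Its median lay just under the array median, so it was not counted among the expressed genes.

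Of the enzymes that modify elongation factors, Eef1akmt1, a lysine methyltransferase of eEF1A, had 110.0, 105, 123, 104, 100.3 and 105 in samples 1 to 6 (1.29-fold), with sample 3 highest. Eef2k, the calcium-dependent kinase that stops eEF2, was under the array median in all samples, with 8.29, 17.9, 44.7, 31.8, 4.39 and 15.1.

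All 3 genes of termination were expressed. Gspt1, which encodes the GTPase eRF3a, had signals of 286, 282, 228, 186, 269 and 207 in samples 1 to 6 (1.57-fold). Samples 1, 2 and 5 were high and sample 4 low. Its paralogue Gspt2, eRF3b, had 200.5, 174, 202, 169.6, 167 and 186 (1.27-fold). Etf1, which encodes eRF1, the protein that reads the stop codon, had 451, 438, 499, 459.9, 422 and 430.3 (1.25-fold), with sample 3 highest.

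**Figure D2:**
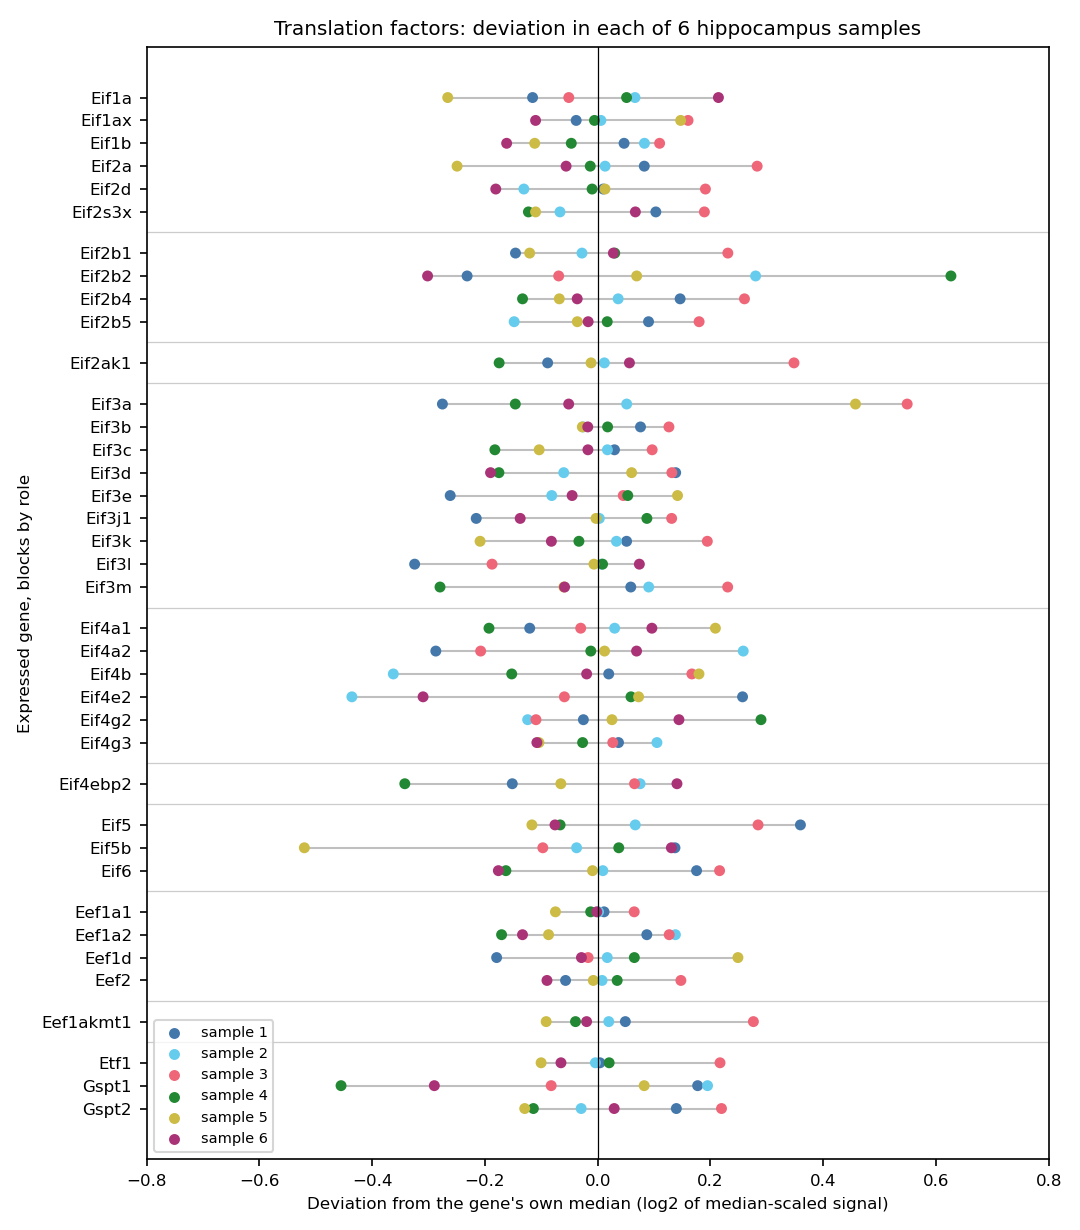
Deviation of each of the 38 expressed genes from its own median (horizontal axis, log2 of median-scaled signal), with 1 coloured point per sample and a grey line from the lowest to the highest sample; genes are in blocks by role in the order of the text. The sample 3 points lie at the right end for 21 genes and at the left end for none, while Eif2b2 is led by sample 4 and Eif5b has sample 5 far to the left.

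Most of the genes, though not all groups, had a high sample 3. After scaling, 21 of the 38 genes (55.3%) were highest in sample 3, where 31.1% of all expressed genes were, and 0 were lowest there, beside 11.1% of all expressed genes. The lowest value of a gene was most often in sample 5, for 10 of the 38, beside 20% of all expressed genes, or in sample 4, for 9, beside 20.7%. Samples 1, 2, 4, 5 and 6 held the highest value of 4, 4, 2, 4 and 3 genes, beside 17.3, 15.6, 12.6, 12.1 and 11.4% of all expressed genes. The genes highest in sample 3 were 5 of 6 for scanning and ternary complex, 3 of 4 for eIF2B, 6 of 9 for eIF3, 2 of 4 for elongation and 2 of 3 for termination, against 1 of 3 for subunit joining, where 2 were highest in sample 1, and 0 of 6 for the eIF4 factors. Of the groups with 1 expressed gene, Eif2ak1 and Eef1akmt1 were highest there and Eif4ebp2 was not. The differences were small: the score of the 38 genes, the median of their deviations, was 0.13 in sample 3 on the log2 scale, beside 0.05 for all expressed genes, and in the other samples between -0.04 and 0.02. Sample 3 had the lowest array median, and the count was smaller with each of the 3 other scalings. With the deposited signals not rescaled, 14 genes (36.8%) were highest in sample 3, beside 19.1% of all expressed genes, and the score was 0.08. With quantile normalization 12 were (31.6%, beside 19.5%), and 11 were then highest in sample 1 (28.9%, beside 21.6%). The count lowest in sample 3 was 0 with quantile normalization, beside 16.3% of all expressed genes. It was 1 with no rescaling (2.63%, beside 17.7%) and 2 with the mean of all probe sets of a gene (5.56%, beside 11.2%). Among the control probe sets read at both ends of an RNA, the ratio of the 3' to the 5' signal was highest in sample 3 for pyruvate carboxylase (3.56) and for the transferrin receptor (3.47), whereas it was highest in sample 1 for beta-actin (1.27) and Gapdh (0.86). Some markers of neurons and astrocytes were lowest in sample 3. Camk2a, a kinase of excitatory neurons, had 412, 845, 275, 865, 1016 and 579 in samples 1 to 6 (3.51-fold). Gria1, a glutamate receptor subunit, had 1245, 1542, 893, 1793, 1688 and 1613 (1.90-fold). Wfs1, Slc1a2 and Aqp4 were lowest there too, while Neurod6, Neurod2, Nefl and Gfap were highest there. Snap25, Syt1 and Gja1 were neither. In sample 3 the score of the neuron markers was 0.05, within -0.35 to 0.09 over the samples. That of the astrocyte markers was at its lowest there, at -0.25. The scores of the oligodendrocyte markers (0.18, with Mog and Mag highest there) and of the microglial markers (0.08, with C1qa and C1qc highest there) were at their highest in sample 3. The part of RNA quality and of cell makeup in the pattern was not tested.

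**Figure D3:**
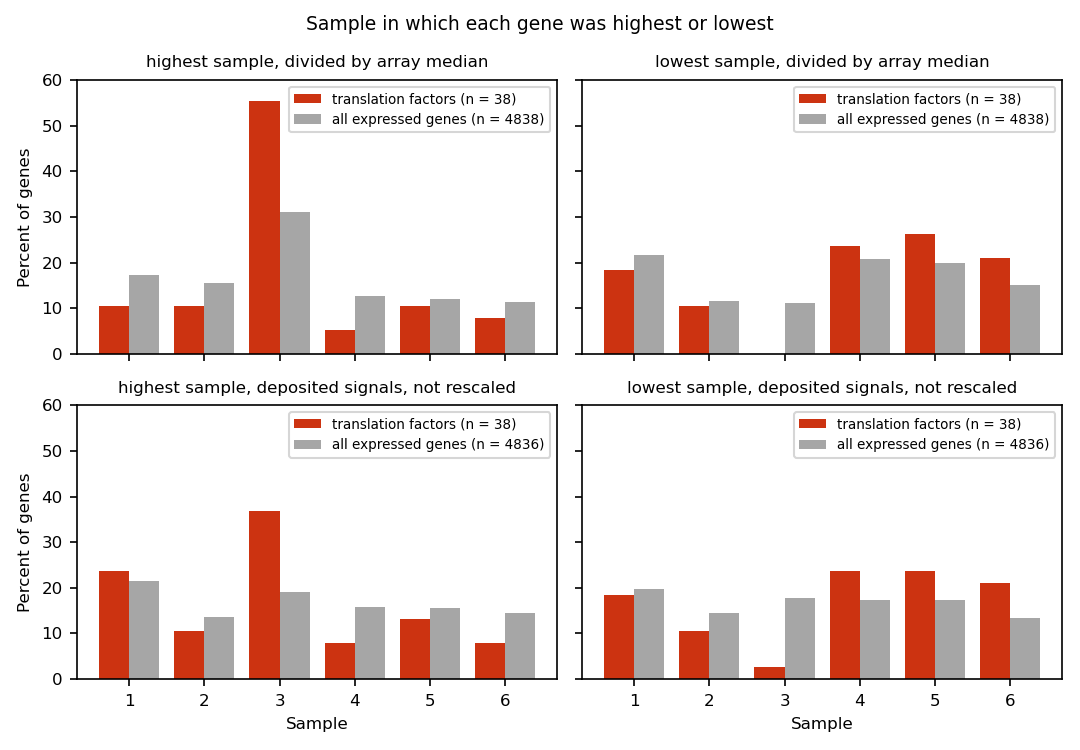
Percent of genes (vertical axis) whose highest (left) or lowest (right) value was in each of samples 1 to 6 (horizontal axis), for the expressed translation factors (red bars) and all expressed genes (grey bars), after division by the array median (top) and with deposited signals not rescaled (bottom). Sample 3 holds the highest value of 55.3% of the factors at the top and 36.8% at the bottom, above the 31.1% and 19.1% of all expressed genes.

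Several genes were read by more than 1 probe set, which gives a check of the pattern within the same RNA. For 6 expressed genes another 8 probe sets had a median above the array median. Of these 8, 1 was highest in the same sample as the probe set used, 2 were lowest in the same sample, and 5 matched in neither. Eif4ebp2 differed most: its second probe set had signals of 144, 111, 50.5, 110.5, 148 and 147 in samples 1 to 6, a 2.78-fold range with sample 3 far the lowest, where the probe set used was above its own median. Both probe sets of Eif1ax were lowest in sample 6, but the second was highest in sample 5 (197) and the one used in sample 3 after scaling. The second probe set of Eif2b5 was lowest in sample 2, as the first was, but highest in sample 5 (121). Etf1 had 4 such probe sets. The one used and 1 other were highest in sample 3. Another had 497, 428, 473, 383, 350.3 and 347 in samples 1 to 6 (1.43-fold), and the last, with a 1.38-fold range, was led by sample 6. The further probe set of Eif4b ranged 1.09-fold, against 1.46-fold, and that of Eif1a 1.24-fold, against 1.39-fold. Of the 8 further probe sets, only that of Eif4b and 1 of Etf1 were highest in sample 3 after scaling. Of all expressed genes 31.1% were highest there. Which sample is highest or lowest thus depended on the probe set for most of these genes, at ranges of this size.

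**Figure D4:**
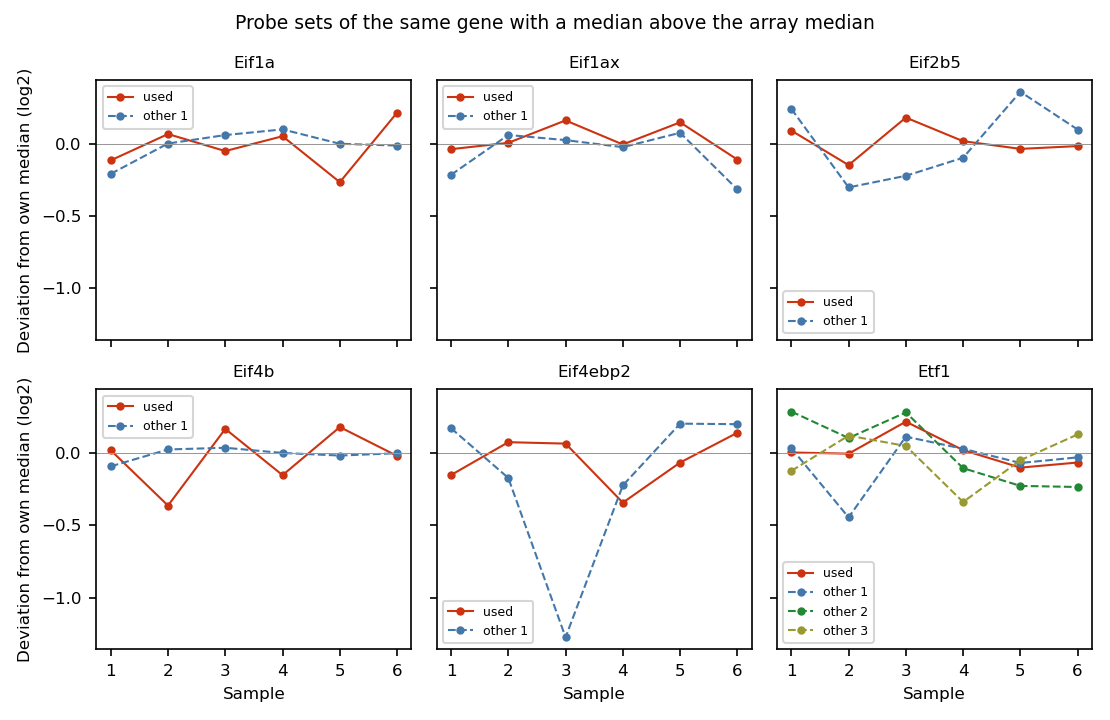
Deviation from its own median (vertical axis, log2 of median-scaled signal) in samples 1 to 6 (horizontal axis) for each probe set with a median above the array median, in the 6 genes that have more than 1; the red solid line is the probe set used and dashed lines are the others. The lines of 1 gene often part, most of all for Eif4ebp2, where the second probe set drops in sample 3 to a signal of 50.5.

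Other genes of the pathway were read in 6 lists, of which 2 held 1 gene each with a range over 1. Of 19 genes of the mTOR pathway 11 were measured and all 11 expressed, with a median range of 0.43, beside 0.40 for all expressed genes. Mknk2, a kinase of eIF4E, was the widest, at 131, 95.2, 166, 207, 175 and 129 in samples 1 to 6 (2.11-fold). Of 18 genes of the integrated stress response, the program that eIF2 alpha phosphorylation switches on, 10 of the 16 measured were expressed (median range 0.30). None exceeded a range of 1, and Atf5, one of its transcription factors, was the widest, at 46.6, 88.8, 67.6, 73.7, 66.1 and 54.0 in samples 1 to 6, a 1.95-fold range. With its 2 dim values set to the array median it ranged 1.45-fold. The poly(A)-binding and mRNA-specific regulators had 11 expressed of 12 measured (median range 0.30). The widest was Pabpc4, a poly(A)-binding protein, at 88.8, 134, 106, 130.0, 169 and 183 in samples 1 to 6 (2.05-fold). Of 19 measured cytosolic aminoacyl-tRNA synthetases 18 were expressed (0.33), with Farsa, of phenylalanyl-tRNA synthetase, the widest at 1.70-fold. The mitochondrial factors had 4 expressed of 6 measured (0.29), with Mtif2 the widest at 1.34-fold. Cytosolic ribosomal proteins had 25 expressed of 36 measured (0.29), with Rps13, read by probes of shared name, the widest at 1.83-fold. After median scaling, 15 of these 25 were highest in sample 3, beside 31.1% of all expressed genes, and 17 lowest in sample 5, beside 20%. For the synthetases 9 of 18 were highest in sample 3, for the stress response 5 of 10, and for the mTOR list 1 of 11. Counts for the lists were not made with the other scalings. These lists were read on the same 6 arrays, so their likeness in sample 3 is no separate evidence.

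Of 9 measured markers of hippocampal neurons 8 were expressed, the exception being Prox1, of dentate granule cells. Of 5 measured markers of the neighbouring thalamus 4 were expressed (Tcf7l2, Lef1, Prkcd and Calb2), with a summed level of 12.2 to 15.9 times the array median. These 4 did not follow 1 order. Lef1 (2.07-fold) was highest in sample 4, where Tcf7l2 (1.46-fold) and Calb2 (1.62-fold) were lowest. Prkcd (1.49-fold) was highest in sample 5 and, like Lef1, lowest in sample 1. In bulk tissue, fewer cells of a type and less RNA per cell cannot be told apart. Among markers of other cells, the summed level of the 2 expressed choroid plexus genes, Ttr and Folr1, ran from 0.69 times the array median in sample 1 to 31.2 times it in sample 6. Kl, a further marker of this tissue, had 45.8, 37.2, 42.6, 138, 83.3 and 146 in samples 1 to 6, above the array median in samples 4 to 6, where Ttr and Folr1 were high too. The remaining markers, Aqp1 and Cldn2, stayed under the median of every array. The summed level of 5 meningeal genes ran from 46.6 to 111 times the array median and that of 5 oligodendrocyte genes from 64.9 to 90.2 times it. Such sums lean on the genes with the largest signals. Among the meningeal genes Ptgds, read by probes of shared name, ran from 1317 in sample 5 to 4699 in sample 2 (3.67-fold). Dcn ranged 2.31-fold, Slc6a13 1.79-fold, Igf2 1.54-fold and Col1a2 1.12-fold. The sum of 4 astrocyte genes ran from 43.2 to 49.2 times the array median, and the summed level of 5 microglial genes was at most 26.0 times it. Of the astrocyte genes Gja1, read by probes of shared name, had the largest signals and ranged 1.10-fold. Gfap (1.76-fold) was highest in sample 3, where Slc1a2 (2.01-fold) and Aqp4 (1.54-fold) were lowest. The part of these other cells in the differences between samples was not tested.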

How the data were processed

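Arrays of 6 hippocampus RNA samples were analysed. The authors deposited linear signal intensity for 12488 probe sets, 66 of them controls (scanner, summary method and scaling not given in the sources used here). A mean of the deposited values between the 2nd and 98th percentile was 150.0 on every array, and array medians without the controls ran from 59.9 to 63.3. No 2 arrays were identical. Genes were named from the platform annotation where a probe set had 1 symbol (10833 probe sets, 8251 genes), and identifiers were checked against RefSeq (10817 matched, 0 symbols changed). Eif4a3 is on a probe set with several symbols and was not used. Promoter windows are those of RefSeq on GRCm38.p6. The genes, groups and lists were chosen with earlier results of these data known. Values in every sample were given for genes with a range over 1, the widest gene of each group, all elongation factors, genes with several probe sets and those with 1 sample apart; further values and the marker genes named beside sample 3 were chosen after their values were seen; for the pathway lists the widest expressed gene was named. With no groups, no test between samples' conditions was run, and single samples were only read against Dixon's 95% critical value; the number of arrays limits the precision. Alternatives were 3 other scalings, 2 other floors, 2 probe set rules, 2 filters and each sample left out. The range calculation was tested on simulated data. Python 3.11.15, numpy 2.4.6, pandas 2.3.3 and matplotlib 3.10.9 were used.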

Additional observations from a re-analysis of the deposited data

Results flagged for a closer look

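Each expressed gene and each group score with 3 or more expressed genes was checked for 1 sample standing apart from the other 5, by the gap to the nearest sample over the whole range (Dixon's ratio, read against its 95% critical value for 6 values). The samples are not replicates of a group, and chance alone marks about 1 in 20. Of the 38 genes 1 was marked, beside 5.89% of all expressed genes. It was Eif5b, with sample 5 low and a ratio of 0.643. The ratio was 0.615 with quantile normalization, 0.551 with 75th percentile scaling and 0.535 with no scaling, all under the critical value, and its second, dimmer probe set was lowest in sample 1 (19.2). The score of the 4 eIF2B genes was marked too, with sample 3 high and a ratio of 0.706, although Eif2b2 itself was highest in sample 4. That ratio was under the critical value with quantile normalization (0.575), no scaling (0.560) and 75th percentile scaling (0.559), and above it with the mean of probe sets (0.873).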

How the results depend on the processing

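No expressed gene had a range over 1 with any of the 3 other scalings or either other probe set rule. The same held with either other floor and with the stricter filter, but these could not bring any of the 38 genes over 1. With no filter on dim genes 5 of 51 had a range over 1 (Eef1b2, Eef2k, Eif2ak4, Eif3f and Eif4e, that is 9.8%, beside 12.9% of all genes). Leaving out 1 sample at a time gave 0 to 1: without sample 2, 5 or 6 Eef1b2 passed the filter on dim genes and was that 1. Between 38 and 39 genes were then expressed, with a median range from 0.32 to 0.39. The score of the genes in sample 3 stayed between 0.07 and 0.16 in all settings that hold that sample. Of 570 recomputed ranges of single genes 28 moved by more than the gene's SD over the samples, 9 of them without sample 3 and 7 with the mean of probe sets, where Eif5b had a range of 0.99. Many of the 570 could not move. The 2 filters leave a range as it is, and no value of an expressed gene lay at the floor that was dropped. The floor at the array median could change only Eif4e2, and the probe set rules only genes with several probe sets. No paired analysis was possible because no sample has a group. Signal over background is unknown, which limits the 13 dim genes most.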
